A study of Mus musculus with 9 samples.

Results

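Metallothioneins and zinc transporters were described in the hippocampus of Nestin;BrafKE/+ and Braf+/+ mice through 10 genes of the 18275 in the deposited table, taken by their symbols: the metallothioneins Mt1, Mt2 and Mt3, the transcription factor Mtf1, the exporters Slc30a1, Slc30a3 and Slc30a10, and the importers Slc39a10, Slc39a12 and Slc39a14. The set was chosen by function with the normalised signals of the mutant and control libraries, and so the genotype differences themselves, already known. These differences are therefore given as a description. How many of them passed the test over all genes is stated as a count beside the share of all genes, and nothing is read from it. All 10 genes passed the minimum mean value of 10 used for testing, the lowest of them with a mean of 493 over the 9 libraries. RNA was sequenced from 4 adult male Nestin;BrafKE/+ mice and 5 adult male Braf+/+ mice on the C57BL/6N strain, 1 library per animal. Nestin;BrafKE/+ mice carry 1 Braf allele encoding the K499E kinase. Its expression follows recombination by Nestin-Cre in neural stem cells, so neurons and glia that come from such cells carry it, and it was not limited to 1 cell type. The sources used here do not say whether the Braf+/+ animals carried Nestin-Cre, and both groups were briefly anaesthetised before dissection. Nestin;BrafKE/+ libraries are called mutant and Braf+/+ libraries control, with the replicate numbers of the labels. The library names fall into 3 series, with mutant 1 and controls 1, 2 and 3 in series A, mutants 2 and 3 and control 4 in series B, and mutant 4 and control 5 in series C. All values are the authors' normalised signal, which is relative within a library and carries no read depth.

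Metallothioneins are small cysteine-rich proteins that bind zinc and copper and buffer the free metal in the cell. In the brain Mt1 and Mt2 are made mostly by astrocytes and are induced by zinc, glucocorticoids and injury, whereas Mt3, first found as a growth inhibitory factor, is a brain form that responds little to zinc. MTF-1, the product of Mtf1, senses free zinc and binds metal response elements in front of its target genes, among them Mt1, Mt2 and Slc30a1. SLC30 proteins (ZnT) move zinc out of the cytosol, to the outside or into vesicles, and SLC39 proteins (ZIP) move it in. The hippocampus is rich in vesicular zinc, above all in the mossy fibre terminals of dentate granule cells, where ZnT3, the product of Slc30a3, loads it into synaptic vesicles.

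The promoters of the 3 metallothioneins and of Slc30a10 are shown because the metal response element is the best known switch of metallothionein genes, and Slc30a10 was the transporter of the 10 genes with the most matches to it. Each line gives the 250 bases before the start site that RefSeq annotates on GRCm38.p6, 5′ to 3′, and the capitals mark every match to the core of the metal response element (TGCACNC or TGCGCNC, read on both strands). Mt2 lies at chr8:94172368-94172617, Mt1 at chr8:94178839-94179088, Mt3 at chr8:94152357-94152606 and Slc30a10 at chr1:185454598-185454847, all on the plus strand.
Mt2: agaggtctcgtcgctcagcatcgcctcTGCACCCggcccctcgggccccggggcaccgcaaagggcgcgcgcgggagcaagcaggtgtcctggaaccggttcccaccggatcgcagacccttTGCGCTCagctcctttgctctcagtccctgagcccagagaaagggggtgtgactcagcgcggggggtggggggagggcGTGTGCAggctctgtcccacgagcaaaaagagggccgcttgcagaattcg
Mt1: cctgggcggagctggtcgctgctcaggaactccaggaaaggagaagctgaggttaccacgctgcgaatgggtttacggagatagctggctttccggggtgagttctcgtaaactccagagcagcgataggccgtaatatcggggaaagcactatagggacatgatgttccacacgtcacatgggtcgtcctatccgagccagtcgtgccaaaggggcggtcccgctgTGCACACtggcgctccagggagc
Mt3: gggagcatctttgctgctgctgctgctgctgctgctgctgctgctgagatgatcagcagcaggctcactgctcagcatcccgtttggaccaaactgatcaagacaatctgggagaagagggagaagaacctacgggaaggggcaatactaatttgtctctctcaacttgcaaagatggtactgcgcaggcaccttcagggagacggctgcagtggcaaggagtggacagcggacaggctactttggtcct
Slc30a10: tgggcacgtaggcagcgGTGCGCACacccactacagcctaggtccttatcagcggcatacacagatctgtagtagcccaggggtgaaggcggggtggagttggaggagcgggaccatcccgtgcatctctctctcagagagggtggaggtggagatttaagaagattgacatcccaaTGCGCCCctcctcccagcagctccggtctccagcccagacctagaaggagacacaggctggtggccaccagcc
In the full RefSeq window, which runs on for 50 bases past the start site, Mt2 held 4 cores, beginning at -223, -128, -50 and 4 relative to the start. The Mt1 window held 3, beginning at -23, 2 and 20, and the Slc30a10 window held 3, of which 2 overlap each other. Mt3 had a single core, past the start site, and Slc30a1 had 2. Among 32851 mouse promoter windows of the same length, 25.7% held at least 1 core, 1.97% at least 3 and 0.517% at least 4. Of the 10 genes, 9 had a RefSeq promoter in the table used, and 6 of these had at least 1 core in at least 1 of their windows. Mtf1, Slc39a10 and Slc39a12 had none of these letters in their windows. The core of the antioxidant response element (TGACNNNGC, both strands), which 12.4% of windows held, was found in Mt2 and in Slc30a1, 1 match each. The letters TTCNNNGAA, a STAT core that 8.3% of windows held, were found in 1 of the Slc39a10 windows. Such matches describe the letters of a window and are not evidence of a bound site. Cores outside the annotated windows were not counted, so a gene can have more than are given here.

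The metallothioneins were higher in the mutant libraries, Mt2 and Mt1 by the most and Mt3 by less. Mt1, which on GRCm39 lies at chromosome 8, 94905710 to 94906955, had values of 4774, 5093, 5148 and 4367 in mutants 1 to 4, against 2959, 3443, 2962, 2768 and 3437 in controls 1 to 5. Every mutant library was above every control library, with means of 4845 ± 359 (SD, n = 4) and 3114 ± 308 (SD, n = 5). The fitted log2 difference, mutant minus control with the series as a term, was 0.64 (SE 0.0855), and the ratio of the means was 1.56. Mt2, at chromosome 8, 94898819 to 94900207, lies next to Mt1 and encodes a protein of the same function. Its values were 2390, 2135, 2404 and 1956 in the mutants and 1233, 1424, 1249, 1274 and 1510 in the controls. The groups again did not overlap, and the log2 difference was 0.73 (SE 0.091), a ratio of the means of 1.66. Mutant 4 was the lowest mutant library and control 5 among the highest control libraries for both genes, and these are the pair of series C.

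Mt3 lies in the same cluster, at chromosome 8, 94879220 to 94881088. Its values were 5105, 5474, 5571 and 4460 in mutants 1 to 4 and 3462, 3851, 4175, 3298 and 4393 in controls 1 to 5. The groups were apart by little, since mutant 4 with 4460 exceeded control 5 with 4393 only narrowly. The means were 5152 ± 503 (SD, n = 4) and 3836 ± 462 (SD, n = 5), and the log2 difference was 0.43 (SE 0.10). Proportions within the cluster follow from these same values and are not a separate result. The Mt3 to Mt1 ratio was 1.06 ± 0.0271 in the mutant libraries (at most 1.08) and 1.23 ± 0.114 in the control libraries (at least 1.12). The Mt1 to Mt2 ratio overlapped, at 2.19 ± 0.164 in mutants and 2.33 ± 0.103 in controls. The summed signal of the 3 genes was 12220 ± 1020 in mutants and 8288 ± 806 in controls, of which Mt3 made up 42.2% and 46.2%. A predicted gene, Gm45774, overlaps Mt2 on the opposite strand. The library kit keeps strand, but the strand setting of the authors' counting is not given in the sources used here.

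**Figure D1:**
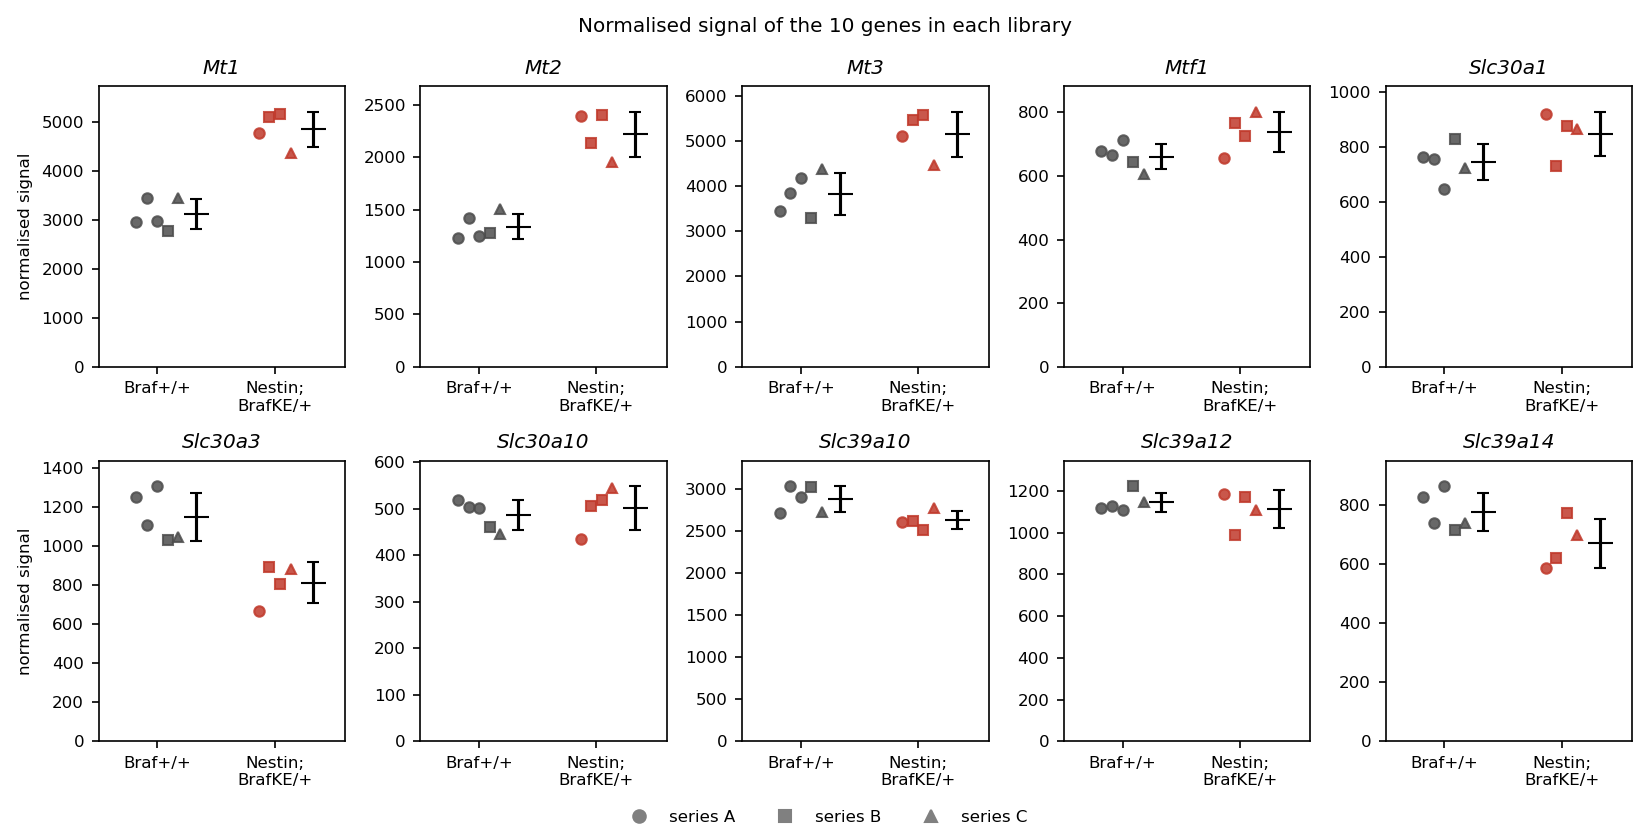
Normalised signal of the 10 genes (y axis, from 0) in each library, with controls in grey on the left and mutants in red on the right, marker shapes for series A, B and C, and black bars for the mean ± SD (n = 5 and n = 4). The 4 mutant libraries lie above all 5 controls for Mt1, Mt2 and Mt3 and below all of them for Slc30a3, and the groups overlap for the other 6 genes.

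Mtf1, which encodes the zinc sensor, had overlapping groups. Its values were 656.6, 765.9, 725.8 and 802.6 in the mutants and 678.6, 665.1, 711.8, 642.8 and 605.5 in the controls. Mutant 1 lay among the controls and the other 3 mutants above them, and the log2 difference was 0.16 (SE 0.085). It was 0.30 without mutant 1 and 0.07 without mutant 4 or control 5. Gm56097 overlaps Mtf1 on the same strand, so some of its signal cannot be assigned with certainty.

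Among the exporters, Slc30a3 was the one with a clear separation, and it was lower in the mutants. Its values were 667.6, 896.1, 807.7 and 883.4 in mutants 1 to 4 and 1255, 1108, 1309, 1035 and 1050 in controls 1 to 5. All mutants lay below all controls, with means of 814 ± 105 (SD, n = 4) and 1152 ± 124 (SD, n = 5). The log2 difference was -0.50 (SE 0.11), a ratio of the means of 0.707. Mutant 1 was the lowest library and carried much of this value, which was -0.27 when it was left out. Slc30a1, which encodes the plasma membrane exporter ZnT1 and is itself a target of MTF-1, had values of 918.6, 729.2, 873.6 and 863.4 in the mutants and 762.1, 756.1, 646.1, 827.6 and 723.6 in the controls. Here 3 of the 4 mutants were above all controls and mutant 2 was among them, with a log2 difference of 0.19 (SE 0.097). This was 0.08 without mutant 1 and 0.31 without control 4. Slc30a10, whose product exports manganese more than zinc, also overlapped, from 434.7 to 545.4 in the mutants and from 445.4 to 519.7 in the controls. Its log2 difference was 0.04 (SE 0.095).

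The 3 importers had lower means in the mutants, with overlapping groups. Slc39a14, whose product ZIP14 takes up zinc, manganese and iron not bound to transferrin, had values of 586.3, 620.9, 773.7 and 698.9 in the mutants and 826.7, 739.1, 863.2, 716.1 and 738.6 in the controls. In 3 of 4 mutants it was below every control, and mutant 3 lay inside the control range, with a log2 difference of -0.22 (SE 0.10). It was -0.06 without mutant 1 and -0.31 without control 4. Slc39a10, which encodes the plasma membrane importer ZIP10, ran from 2519 to 2784 in the mutants and from 2720 to 3036 in the controls, a log2 difference of -0.13 (SE 0.059), which was -0.07 without control 4. Slc39a12, which encodes the brain-enriched importer ZIP12, ran from 988.5 to 1187 in the mutants and from 1110 to 1223 in the controls, a log2 difference of -0.04 (SE 0.073). Predicted genes overlap Slc39a10 and Slc39a12 on the same strand.

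Counted together, mutant and control values stood fully apart for 4 of the 10 genes (3 higher and 1 lower in the mutants), against 15.7% of all 16196 genes tested (7.62% higher and 8.13% lower). In the limma fit over all genes, 3 of the 10 genes passed an adjusted p of 0.05 (Mt1 and Mt2 higher, Slc30a3 lower), against 2.88% of all genes tested, or 1.52% higher and 1.36% lower. Nothing is read from these counts, since the genes were chosen with this comparison known. Their median log2 difference was 0.10, beside 0.00033 over all genes tested. Of the 10, 6 were above 0, beside 50.1% of all genes tested. That median was 0.0128 without mutant 4 or control 5, and 0.145 without mutant 1. Mutant 1 is the only mutant of series A, so without it the 3 controls of that series no longer bear on the difference. Mt1 and Mt2 then kept log2 differences of 0.66 and 0.63 but lost their calls, and 0 of the 10 genes passed. The fit without mutant 1 called only 42 of all 16196 genes tested, against 466 with all 9 libraries. When each of the 9 libraries was omitted in turn, Slc30a3 kept its call 3 times (without mutant 2, mutant 4 or control 5). Mt3 gained one 2 times (without mutant 4 or control 5). Omitting mutant 4 or control 5 leaves series C with 1 library and gives the same difference, so these fits are not separate checks.

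The other zinc genes in the table, taken by name from the same families with the zinc receptor Gpr39 and the zinc efflux protein Tmem163, numbered 18. By limma 0 of 18 passed an adjusted p of 0.05, beside 2.88% of all genes tested. An unadjusted p under 0.05 was found for 2 of 18 (Gpr39 and Slc30a2), a share of 11.1% beside 18.5% of all genes tested. Of the 18, 8 were higher and 10 lower in the mutants, where 50.1% of all genes tested were higher. The median log2 difference of the 18 was -0.06. Gpr39, a receptor that extracellular zinc activates, had values of 164.6, 140.1, 132.8 and 131.6 in the mutants and 177.9, 230, 187.2, 223 and 222.2 in the controls. All 4 mutants were below the controls, with a log2 difference of -0.54 (SE 0.14) and an adjusted p of 0.0612. Slc30a2, whose product moves zinc into vesicles, ran from 60.9 to 77.49 in the mutants and from 80.01 to 102.3 in the controls. Its log2 difference was -0.44 (SE 0.16, adjusted p = 0.170). Slc39a8, close to Slc39a14 in sequence and substrates, was the highest of the 18 with a log2 difference of 0.17 (SE 0.14, adjusted p = 0.565), and Slc39a4, the importer of dietary zinc in the gut, the lowest with -0.82 (SE 0.46, adjusted p = 0.386) at values from 13.91 to 90.39. Slc39a4 had -0.11 without control 4 and -1.77 without mutant 1, so it was no longer the lowest without control 4. Values of the groups stood fully apart for 3 of the 18 (Gpr39, Slc30a2 and Slc39a8), a share of 16.7% beside 15.7% of all genes tested. With the other zinc genes included, the table held 3 metallothioneins, 9 Slc30a and 13 Slc39a genes. Mt4, Slc30a8 and Slc39a5 were not analysed here.

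**Figure D2:**
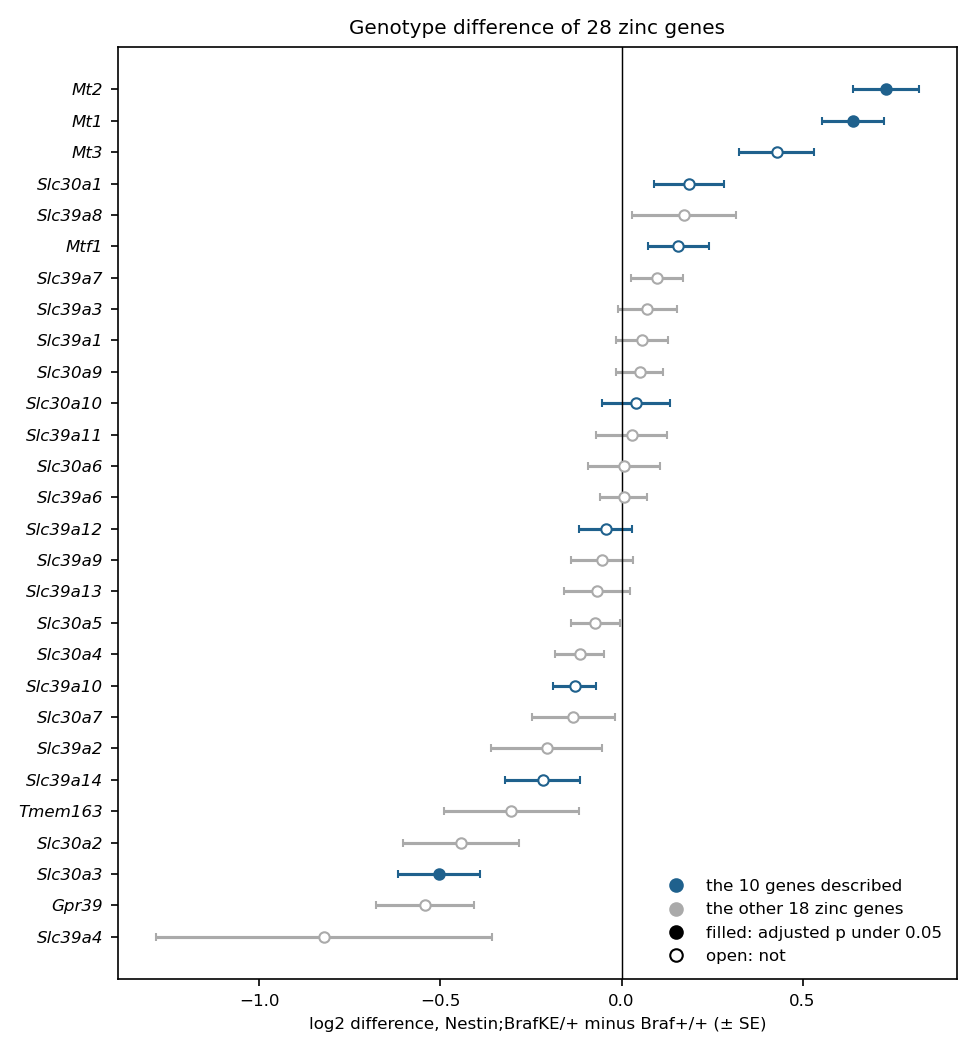
Log2 difference between mutant and control libraries (x axis, mutant minus control, fitted with series as a term, bars ± SE) for 28 zinc genes, the 10 described genes in blue and the other 18 in grey. Filled points passed an adjusted p of 0.05 (Mt2, Mt1 and Slc30a3), and most of the other genes lie within 0.25 of 0.

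Divided by the length of the canonical transcript, which allows levels to be compared between genes, the 3 metallothioneins stood at the top of the 28 zinc genes in the control libraries. Mt3 had 4434 ± 534 normalised signal per kb, Mt1 4086 ± 404 and Mt2 1789 ± 164 (SD, n = 5). The control ranges of Mt3 and Mt1 overlapped, whereas Mt1 was above Mt2 and Mt2 above Slc39a7 (636 per kb) in every control library. Slc30a3 came 6th with 512 ± 55.0 per kb and Slc39a10 7th with 448 ± 23.9, and their ranges overlapped. Slc39a12 had 223 per kb, Slc39a14 150 per kb and Slc30a1 141 per kb, ranks 11, 15 and 17. Mtf1 with 86.5 per kb and Slc30a10 with 82.4 per kb did not differ beyond their spread, ranks 19 and 21. In all, 19 of the 27 neighbouring pairs in this order overlapped and 8 did not. In the mutant libraries Mt1, with 6359 ± 471 per kb, had a higher mean than Mt3, with 5957 ± 582, so the order of these means was the other way round.

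**Figure D3:**
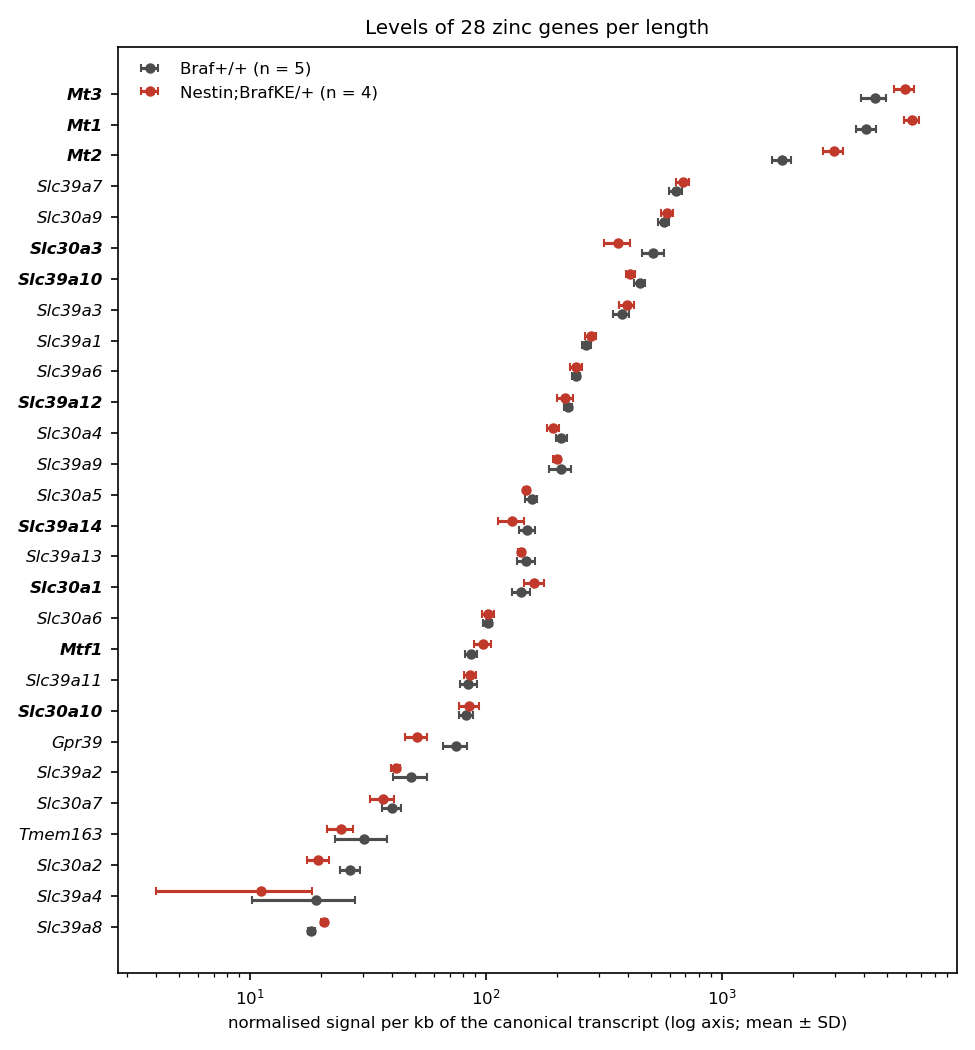
Mean normalised signal per kb of canonical transcript (log x axis, bars ± SD) for 28 zinc genes ordered by the control mean, controls in grey and mutants in red, with the 10 described genes in bold. The metallothioneins lie near 1789 to 6359 per kb in both groups, and every transporter lies below all of them.

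Differences were also taken within each series, where 1 or 2 mutants stand against 1 to 3 controls. Mt1 was higher in the mutants in all 3 series, by 0.62 (A), 0.89 (B) and 0.35 (C) on the log2 scale, and Mt2 by 0.88, 0.83 and 0.37. Mt3 was higher by 0.42 and 0.74 in series A and B and by 0.02 in series C, where the pair hardly differed. Slc30a3 was lower in all 3 series, with -0.87, -0.28 and -0.25. Slc39a14 had -0.46, -0.05 and -0.08. The other 5 genes changed sign between series. Mtf1 and Slc30a10 were lower in the mutant of series A (-0.06 and -0.23) and higher in series B (0.21 and 0.15) and C (0.41 and 0.29). Direction was shared by all 3 series for 5 of the 10 genes, for 5 of the other 18 zinc genes and for 36.6% of all genes tested. What the series stand for is not given in the labels, and the authors had already adjusted the values for batches.

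**Figure D4:**
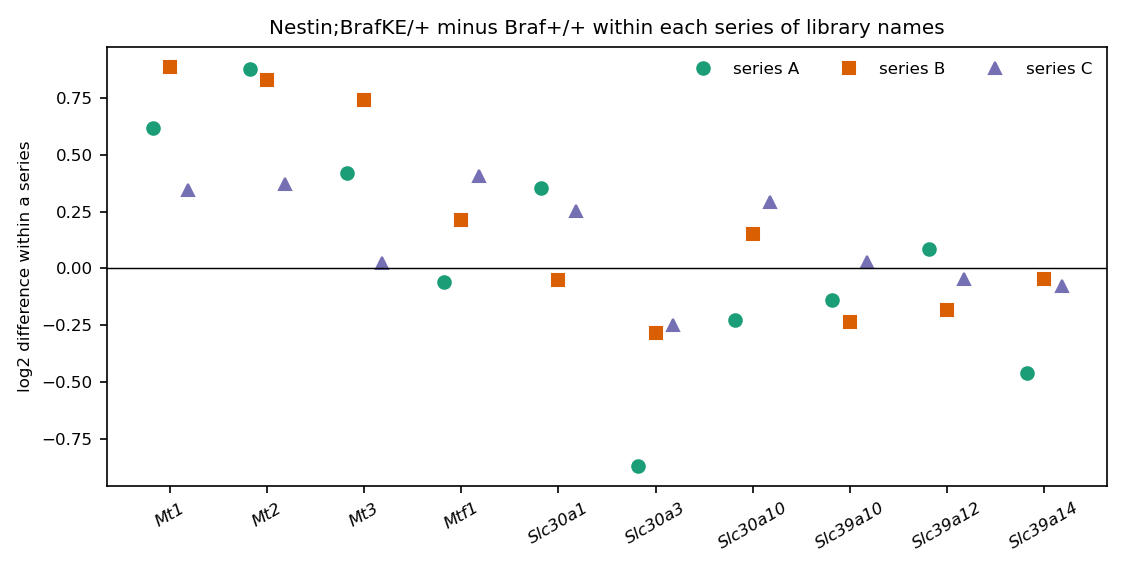
Log2 difference, mutant minus control, within series A (circles), B (squares) and C (triangles) for each of the 10 genes, with a line at 0. Mt1, Mt2 and Mt3 lie above 0 in every series, Slc30a3 and Slc39a14 below 0 in every series, and the other 5 genes on both sides.

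After genotype and series were fitted, the metallothioneins had a larger residual SD than most genes of like level. Such a residual holds both spread among libraries of a group and variation of the genotype difference between series, which were not separated. The residual SD of Mt3 was 0.193 on the log2 scale. That was above 98.4% of the 500 genes nearest to it in level, whose median was 0.0748. For Mt2 it was 0.160, for Mt1 0.152 (94.4% below) and for Slc30a3 0.204 (94.2% below). Slc39a10, with 0.083, was at the median of its neighbours in level, and the other 5 genes stood above 59.6% to 87.2% of theirs. These residuals varied together in the metallothioneins, with a Pearson r across the 9 libraries of 0.79 for Mt1 and Mt2, 0.78 for Mt1 and Mt3 and 0.65 for Mt2 and Mt3. They ran the other way in Mt2 and Mtf1 (r = -0.80), and together in Mtf1 and Slc30a3 (r = 0.92). Only 5 degrees of freedom stand behind each r, the 9 points share their libraries, and the values had been batch-adjusted together, so these are descriptions. Of 7094 genes with a mean of at least 500, those most like Mt1 in their residuals included Sec31a (r = 0.99), 6430548M08Rik, Creb3 and Tmem229b. Those most like Mt2 were Creb1 (r = 0.99), C2cd5, Atg2b, Sbds and Cd81. For Slc30a3 they were Fam131a (r = 0.99), Lhx2, Snn, Cyth1 and Stk32c, and for Slc39a12 Phtf1, Exosc9, Chpt1, Rian and Id4, where the lowest r of the 5 was 0.98. These genes were picked as the highest of 7094 values on 5 degrees of freedom, and none was tested against chance.

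Markers of several cell types differed between the groups beside these genes, and in bulk tissue fewer cells of a type and less RNA per cell cannot be told apart. Of all genes tested, 50.1% were higher in the mutants, 2.88% passed an adjusted p of 0.05 and 18.5% had an unadjusted p under 0.05. Groups stood fully apart for 15.7% of single genes. These shares belong beside the counts of this paragraph and of the marker lists below. Leaving out a library also lowered the calls over all 16196 genes tested, from 466 to 42 without mutant 1. They fell to 97 without control 4 and to 169 without mutant 3. Of 18 astrocyte genes, 16 were higher in the mutants and 6 passed an adjusted p of 0.05 (Gfap, Aldoc, Ntsr2, Acsbg1 and S100b among them), with a median log2 difference of 0.23. Gfap, the astrocyte intermediate filament, was higher by 0.68 (SE 0.096, adjusted p = 0.00576). Their summed signal ran from 232100 to 251800 in the mutants and from 212000 to 226900 in the controls, without overlap, and among the controls it was highest in control 5, which also had the highest metallothionein sum (9340). Of the 18, 0 passed without mutant 1, 1 without control 4 and 3 without mutant 3. All 10 oligodendrocyte genes were higher and 4 passed (Cldn11, Mobp, Mog and Mag), with sums of 129000 to 139200 against 94430 to 114600, and 0 passed without mutant 1, mutant 3 or control 4. No marker of these lists was at 0 in any library. Their part in the metallothionein values was not tested.

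Slc30a3 is a gene of excitatory neurons, and lists of their markers differed in both directions. Of 5 markers of CA3 pyramidal cells, 4 were lower and 0 passed. An unadjusted p under 0.05 was found for 3 of them, beside 18.5% of all genes tested. Their median log2 difference was -0.22, with sums of 7230 to 8731 against 8099 to 9364. Of 8 dentate granule cell markers, 5 were lower. Calb1 was higher (0.43, adjusted p = 0.0178), and Dsp (-0.78, adjusted p = 0.0106) and Lct (-0.39, adjusted p = 0.0161) were lower, and 0 of the 8 passed without mutant 1 or control 4. The summed signal of the list overlapped, at 11180 to 12050 against 10850 to 11440. All 5 CA1 markers were higher and 3 passed (Wfs1, Itpka and Fibcd1), with sums of 17490 to 18680 against 14130 to 14970, and 1 passed without mutant 1 or control 4. Of 10 general excitatory neuron genes, 6 were higher, and Neurod2 alone passed, with -0.53 (adjusted p = 0.0103), a call lost without mutant 1. The part of these markers in the Slc30a3 values was not tested.

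Choroid plexus genes set control 2 and control 4 apart. The summed signal of 10 such genes was 394200 in control 2 and 115300 in control 4, and at most 24870 in each of the other 7 libraries. All 10 were lower in the mutants and 0 passed an adjusted p of 0.05, 4 with an unadjusted p under 0.05 (18.5% of all genes tested had one). Without control 2 the log2 difference was 0.67 for Mt1, 0.75 for Mt2, 0.43 for Mt3 and -0.51 for Slc30a3. Without control 4, the only control of series B, the differences were 0.51, 0.68, 0.26 and -0.62. Mt1 and Mt2 kept their calls in both fits and Slc30a3 lost its call in both. Control 2 and control 4 were not left out together, and the part of choroid plexus tissue in these values was not tested. Meningeal genes ran from 4007 to 4650 in the mutants and from 2537 to 8520 in the controls, with Col1a1 the 1 gene of 10 that passed (adjusted p = 0.0214), and 0 passed without mutant 1, mutant 3 or control 4. Endothelial genes ran from 5301 to 5920 against 5125 to 6465, microglial genes from 7509 to 8179 against 6936 to 7708, and 5 blood genes from 3489 to 6184 against 3180 to 3579, with 0 calls in these 3 lists.

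**Figure D5:**
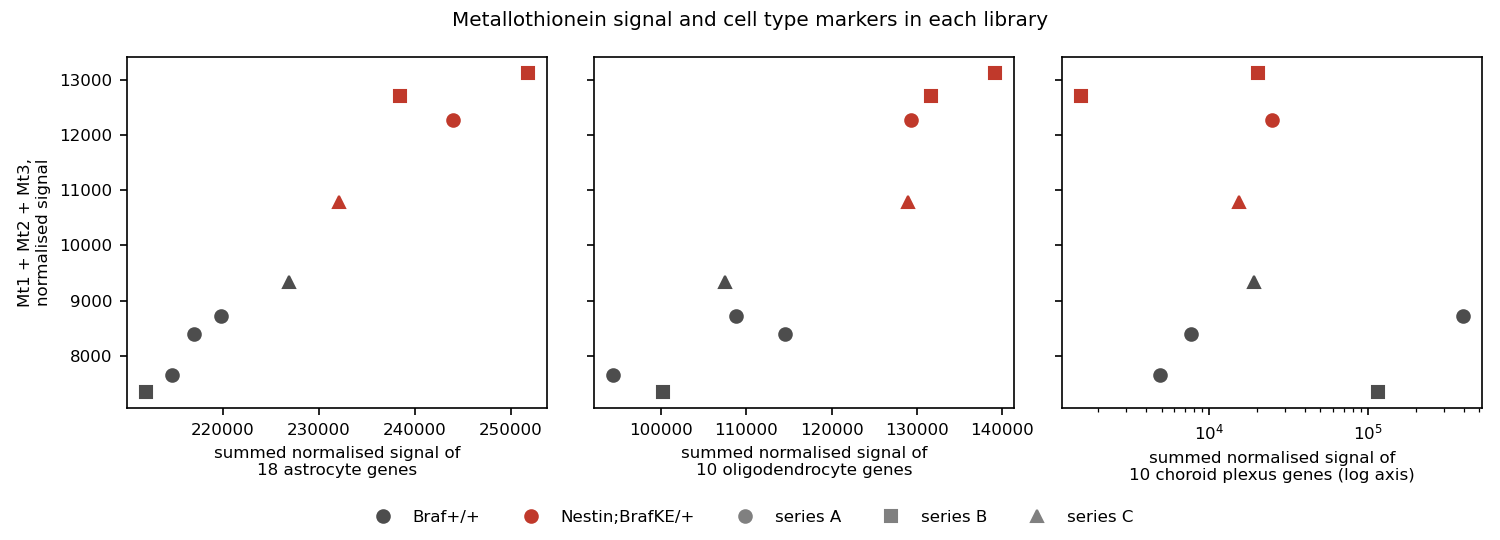
Summed normalised signal of Mt1, Mt2 and Mt3 (y axis) against that of 18 astrocyte genes, 10 oligodendrocyte genes and 10 choroid plexus genes (x axes, the last on a log scale) in each library, controls in grey and mutants in red, marker shapes for the series. The mutants lie above the controls on the y axis (10780 to 13120 against 7341 to 9340) and to their right in the astrocyte and oligodendrocyte panels, and in the choroid plexus panel control 2 lies far to the right.

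Genes that handle other metals, or that share signals with the metallothioneins, were counted in the same fit, in which 18.5% of all genes tested had an unadjusted p under 0.05. In that fit 50.1% of all genes were higher in the mutants. Of 15 iron genes 11 were higher and 5 had an unadjusted p under 0.05 (Trf, Fth1, Tfrc and Cp higher, Ireb2 lower). Of these 5, 1 passed. This was Trf, which encodes the iron carrier transferrin and is made mainly by oligodendrocytes in the brain, with 7324 ± 483 (SD, n = 4) against 4987 ± 443 (SD, n = 5), a log2 difference of 0.56 (SE 0.080, adjusted p = 0.0065). It lost the call without mutant 1 (0.45, adjusted p = 0.0761). Of 11 copper genes 8 were higher and 0 passed, 3 with an unadjusted p under 0.05, and the median log2 difference was 0.04. Of 5 manganese genes 2 were higher and 0 passed, 1 with an unadjusted p under 0.05.

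Oxidative stress, glucocorticoids and interleukin-6 are known inducers of metallothioneins, and their response genes were counted in the same way against that 18.5%. Of 14 genes of the oxidative stress response 11 were higher and 0 passed, 4 with an unadjusted p under 0.05. Higher among these 4 were Gclm, a subunit of the enzyme that limits glutathione synthesis (0.24, adjusted p = 0.0556), and Gpx1, a glutathione peroxidase (0.40, adjusted p = 0.0670). Srxn1 was also higher (0.17, adjusted p = 0.246), and Slc7a11 was lower (-0.38, adjusted p = 0.160). Of 14 glucocorticoid response genes 10 were lower and 0 passed, 2 with an unadjusted p under 0.05, and the median log2 difference was -0.08. Of 9 tested genes of the interleukin-6 and STAT3 pathway 6 were higher and 0 passed, 4 with an unadjusted p under 0.05. Stat3 itself had a log2 difference of -0.28 (adjusted p = 0.0571), and Socs3, the feedback inhibitor that STAT3 induces, one of 0.90 (adjusted p = 0.113) at a control mean of 18.2. The receptor genes Osmr and Il6ra went in opposite directions, with 0.52 (adjusted p = 0.0771) and -0.45 (adjusted p = 0.101). In each of these 3 lists 1 gene passed without mutant 4 or control 5, and in the last also without control 4. The part of these pathways in the metallothionein values was not tested.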

How the data were processed

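Hippocampal RNA of 9 mice was sequenced from TruSeq stranded mRNA libraries. The authors used TrimGalore for trimming, STAR for alignment to GRCm39 and Salmon for quantification, then adjusted for unnamed batches and scaled with DESeq2. Each deposited value is the authors' normalised signal of a gene. Library totals ran from 19550000 to 20090000. All values were whole multiples of a step between 0.9934 and 1.004 (tolerance 0.01), but mt-Co1 had 1 and the same whole number in all 9 libraries, so these are not sequenced reads, the depth behind a value is unknown and count models were not used. All per-sample columns were used.

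Groups came from the labels. Genes with a mean of at least 10 (16196 of 18275) entered a limma fit (version 3.58.1, R 4.3.3, lmFit and eBayes with trend) of log2(value + 1) on genotype and library-name series. Tests were two-sided, with Benjamini-Hochberg adjustment across every gene tested and a threshold of 0.05. The steps were tested on simulated data. The 10 genes and all lists were chosen with earlier results of these data known. The text names all 10 genes, members of other lists that passed the threshold or stood at an extreme, and, per selected gene, the 5 genes most like it, apart from items not reported here. Other genes named were chosen after their values were seen. The sources give 1 animal per library. Coordinates and transcript lengths came from Gencode vM39 on GRCm39, which held 18179 of the gene IDs (99.5%), and promoters from RefSeq on GRCm38.p6. Alternatives were other pseudocounts, filters, normalisations, batch terms, weights and leaving out each library. Figures used Python 3.11.15, pandas 2.3.3 and matplotlib 3.10.9.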

Additional observations from a re-analysis of the deposited data

How the results depend on the processing

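Over all genes tested the main fit called 466. The count moved to 2260 with no series term, 165 with 4 name prefixes in place of the 3 series, 1405 with a replicate block in place of series and 258 with array quality weights, and from 42 (without mutant 1) to 371 when each library was left out. It was 97 without control 4, 169 without mutant 3 and 278 without control 1. Among the calls, 52.8% were higher in the mutants, 62.4% with the 4 prefixes. Of the 10 zinc genes, 3 were called, from 0 (without mutant 1) to 4 when each library was left out, and of the other 18 zinc genes 0, 2 with no series term (Gpr39 and Slc30a2) and 1 with the replicate block (Gpr39, adjusted p = 0.0484). Mt1 and Mt2 were called in 19 of 20 alternatives (log2 differences 0.51 to 0.74 and 0.63 to 0.86), Slc30a3 in 11 of 20 (-0.62 to -0.27) and Mt3 in 5 of 20 (0.26 to 0.57), the replicate block (0.48) among them. The fits without mutant 4 and without control 5 gave the same differences for Mt1 (0.74), Mt2 (0.86) and Mt3 (0.57). Both leave series C with 1 library, so for each gene they are not separate checks, though both enter these counts. Replicate numbers do not pair the samples, with correlations of deviations of -0.39, -0.08, 0.07 and 0.42 for numbers 1 to 4. The replicate block therefore has no basis in the design, though its calls are included in the counts above. Slc39a12 changed sign without mutant 2 (0.0049) and without control 4 (0.0325), with a range of -0.125 to 0.0325, and Slc30a10 without mutant 4 (-0.0496), control 4 (-0.0198) and control 5 (-0.0496), with a range of -0.0496 to 0.211. The cause was not tested. No other difference of the 10 genes changed sign. Rescaling the libraries moved the median of all genes by at most 0.002.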

Other observations

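The genes around the metallothionein cluster were examined after the values had been seen. Within 500 kb on either side of the cluster on chromosome 8, 17 genes other than Mt1, Mt2 and Mt3 were tested in the same limma fit. Of these, 11 were higher in the mutants, beside 50.1% of all genes tested. An unadjusted p under 0.05 was found for 5 (18.5% of all genes tested had one), and 1 passed an adjusted p of 0.05 (2.88% of all genes tested did). Log2 differences ran from -0.18 to 0.75, with a median of 0.12. The gene that passed was Cpne2, which encodes a copine, a calcium-dependent membrane-binding protein (0.70, SE 0.16, adjusted p = 0.0472). When each of the 9 libraries was omitted in turn, it kept the call 1 time, without control 2. Cpne2 also lost the call in the limma fits with the 4 name prefixes (adjusted p = 0.0792), array quality weights (0.0820) and robust eBayes (0.0909). It kept the call with the other pseudocounts, filters, normalisations and batch terms. The highest of the 17 was Gm45774, the predicted gene on the opposite strand of Mt2 (0.75, SE 0.24, adjusted p = 0.132). Pllp, which encodes the myelin protein plasmolipin, had a log2 difference of 0.32 (SE 0.10, adjusted p = 0.123), and Herpud1, which encodes a protein of the endoplasmic reticulum stress response, one of -0.18 (SE 0.066, adjusted p = 0.178). Gnao1, an abundant G protein gene of neurons on the far side of Mt3, had one of 0.12 (SE 0.056, adjusted p = 0.302).

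The Mt3 share of the metallothionein signal was lowest in mutant 4 (41.4%) and highest in control 3 (49.8%), and no mutant library (at most 43.1%) reached the lowest control (44.2%). This share comes from the same values as the Mt3 to Mt1 ratio, and groups stood fully apart for 15.7% of single genes.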
